A study of Mus musculus with 8 samples.

Results

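The 36 genes described here encode enzymes, membrane proteins and proton pump subunits of the lysosome, together with Tfeb, a transcription factor that switches on lysosomal genes. They were chosen by gene symbol: 11 proteases, 9 glycosidases and other glycan-degrading enzymes, 4 proteins of sphingolipid breakdown and progranulin, 6 membrane proteins, 5 pump subunits and Tfeb. No threshold on measured values entered the choice. All 36 were measured among the 19938 genes of the array, each by 1 probe set that names that gene alone. Liver RNA of 8 female C57B1/6J mice was studied, all of them OVX, that is with the ovaries removed, at 7 weeks of age. From 1 week after surgery and for 3 months, 4 of the mice were fed with HFD, a high fat diet. Over the same time the other 4 were fed with HFD+WBM, the same kind of diet with white button mushroom added and less corn starch. Per the paper, the control group was pair-fed by weight to the mushroom group, and the mice were fasted before sacrifice. OVX mice serve as a model of women after menopause, and they still form estrogen outside the ovaries. No array of mice with ovaries was analysed here, so each comparison is between diets in OVX mice alone.

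Lysosomes are acidic compartments in which hydrolases break down proteins, glycans and lipids that arrive by endocytosis, phagocytosis and autophagy. A proton pump, the V-ATPase, keeps them acidic, and the membrane proteins LAMP1 and LAMP2 line them. Hepatocytes are rich in lysosomes, and Kupffer cells, the resident macrophages of the liver, clear particles from portal blood through theirs, so that liver RNA holds lysosomal transcripts of several cell types. The question asked was whether the lysosomal genes differed between the diets, and whether they moved from mouse to mouse with macrophage signal. In RNA of whole liver, fewer macrophages and less RNA per macrophage cannot be told apart.

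Each liver was hybridized to an Affymetrix Mouse Gene 1.0 ST array, and the values are log2 expression values. Array medians were 7.04 to 7.22 with HFD and 7.11 to 7.19 with HFD+WBM, and HFD replicate 3 gave the array most unlike the others. Of 18 markers of macrophages and Kupffer cells 14 fell with HFD+WBM (limma, unadjusted p under 0.05), with a median log2 fold change of -0.67. The mean of these markers was 8.88 to 9.45 in the HFD mice and 8.40 to 8.88 in the HFD+WBM mice. None of the 9 hepatocyte markers measured passed (median 0.07, list mean 12.82 to 13.07 against 12.99 to 13.12). Among 8 markers of sinusoidal endothelium 1 was lower, Lyve1 (list mean 9.19 to 9.81 against 9.02 to 9.46). Among 8 of stellate cells and fibroblasts 3 were lower, Lrat, Col1a1 and Col3a1 (8.45 to 9.19 against 8.13 to 8.71). No marker of lymphocytes, neutrophils or cholangiocytes passed. The part of these cells in the lysosomal differences below was not tested.

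The livers of the HFD+WBM mice had lower values than those of the HFD mice for 7 of the 36 lysosomal genes and higher values for none (limma, unadjusted p under 0.05). They were Laptm5, a membrane protein of lysosomes in blood-derived cells, the proteases Lgmn and Ctsd, the glycosidase Gusb, and the pump subunits Atp6v1a, Atp6v1b2 and Atp6ap1. The other 29 did not pass. The 7 are 19.4% of the lysosomal genes, where 6.9% of all genes were lower and 4.85% were higher by the same test. The 50% brightest genes hold 32 of the 36. In a fit of these bright genes alone, 12.01% of all of them were lower, and 10 of the 32 lysosomal genes were (31.25%). The log2 fold changes of the 36 genes ran from -0.58 to 0.61 with a median of -0.17, against a median of 0.01 over all genes. The estimate was below 0 for 31 of 36 (86.1%), and for 49.3% of all genes. None of the 36 passed after Benjamini-Hochberg adjustment over all genes (adjusted p 0.37 to 0.97), nor did any other gene (smallest adjusted p 0.20). None reached the 2-fold change that the study also required, which 0.762% of all genes met at p under 0.05 in either direction.

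**Figure D1:**
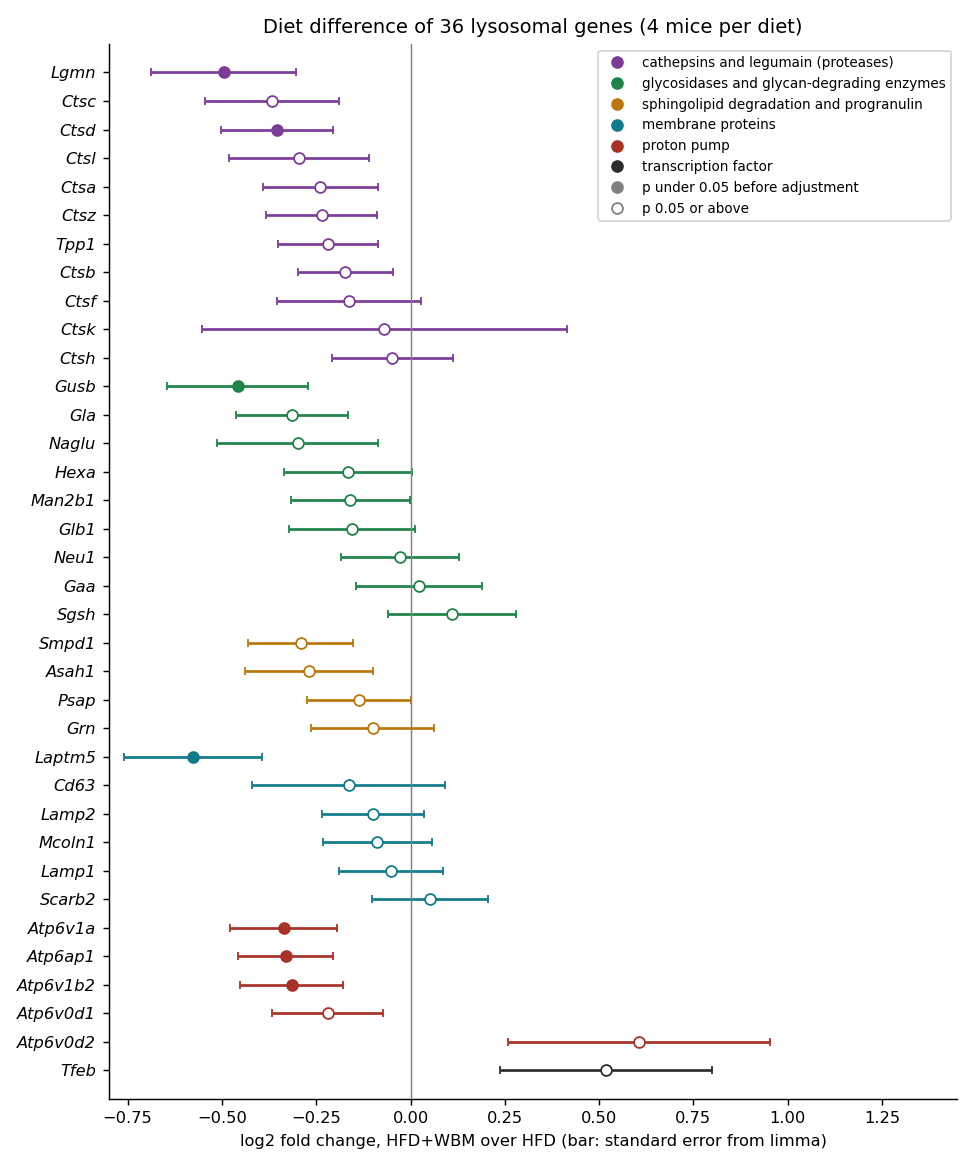
Log2 fold change of each of the 36 lysosomal genes between HFD+WBM and HFD livers (horizontal axis, negative is lower with HFD+WBM), with the standard error from limma, 4 mice per diet, grouped and coloured by role. Filled points are the 7 genes with p under 0.05 before adjustment. All lie left of 0, and Atp6v0d2 and Tfeb lie farthest to the right with wide bars.

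The mean of the 36 genes was 9.84, 9.86, 9.98 and 10.11 in the HFD mice and 9.72, 9.81, 9.70 and 9.90 in the HFD+WBM mice. These means overlapped, since HFD+WBM replicate 4 lay above HFD replicates 1 and 2. For 8 of the 36 genes every HFD+WBM mouse lay below every HFD mouse, and for none above. Such a separation downward was found for 5.02% of all genes. The 8 were Laptm5, Ctsd, Atp6v1a, Atp6v1b2 and Atp6ap1 of the genes that passed the test, and Ctsb, Tpp1 and Smpd1 of those that did not.

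The count of 7 rested on single mice. Leaving out HFD replicate 4 or HFD+WBM replicate 3 brought it to 1, and in both cases the gene was Laptm5. That is 2.78% of the 36, below the 4.98% and 4.53% of all genes that were lower in these fits. The count was 3 without HFD replicate 3 or without HFD+WBM replicate 1 (8.33%, against 6.42% and 6.53% of all genes). It was 4 without HFD replicate 2, HFD+WBM replicate 2 or HFD+WBM replicate 4 (11.1%, against 5.90% to 6.44%). Without HFD replicate 1 it was again 7 (19.4%, against 6.85%), of which 5 were among the original 7. Laptm5 passed without any 1 of the 8 mice, while Atp6ap1 failed without 3 of them, Lgmn without 4, Ctsd without 6, and Gusb, Atp6v1a and Atp6v1b2 without 7. The log2 fold changes themselves moved less over the settings tried: -0.69 to -0.46 for Laptm5, -0.60 to -0.38 for Lgmn, -0.44 to -0.30 for Ctsd and -0.35 to -0.28 for Atp6ap1.

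Macrophage signal was taken per mouse as the mean log2 value of Csf1r, the receptor on which macrophages depend for survival, and Cd68, a glycoprotein of macrophage lysosomes and endosomes. The signal thus includes a gene of the lysosome, and counts with Csf1r alone are given further below. Csf1r was 10.53, 10.11, 10.54 and 10.50 in the HFD mice and 9.53, 10.13, 9.58 and 9.99 in the HFD+WBM mice. Cd68 was 9.24, 9.24, 9.51 and 9.64 in the HFD mice and 8.43, 8.87, 8.35 and 8.99 in the HFD+WBM mice. The diets overlapped for Csf1r through HFD replicate 2 and HFD+WBM replicate 2, and were separate for Cd68. In limma the log2 fold change, with its standard error (SE), was -0.61 (SE 0.19, adjusted p = 0.37) for Csf1r and -0.75 (SE 0.19, adjusted p = 0.37) for Cd68. Their mean was 9.89, 9.68, 10.03 and 10.07 with HFD and 8.98, 9.50, 8.96 and 9.49 with HFD+WBM. The HFD+WBM mice thus fell into a lower pair, replicates 1 and 3, and an upper pair, replicates 2 and 4. The gap between the pairs was 0.51, and the upper pair lay 0.18 below the lowest HFD mouse.

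The proteases cut proteins to peptides and amino acids, and most cathepsins are cysteine proteases. Of the 11 proteases 2 were lower, Lgmn and Ctsd, and the estimates of all 11 were below 0, with a median log2 fold change of -0.24. Lgmn encodes legumain, which cuts after asparagine and matures other lysosomal proteases. Its values were 10.54, 10.31, 10.76 and 10.67 in the HFD mice and 9.72, 10.28, 9.90 and 10.39 in the HFD+WBM mice. HFD+WBM replicates 1 and 3 were low, and replicate 4 lay above HFD replicate 2, so the diets overlapped. The mean fell from 10.57 ± 0.19 to 10.07 ± 0.32 (SD, n = 4 each), 1.41-fold lower, with a log2 fold change of -0.50 (SE 0.19, adjusted p = 0.40 in limma). The call was lost when HFD replicate 3 or 4, or HFD+WBM replicate 1 or 3, was left out.

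Ctsd, the main aspartic protease of lysosomes, was 11.81, 11.96, 12.22 and 12.22 in the HFD mice and 11.72, 11.74, 11.62 and 11.72 in the HFD+WBM mice. The HFD+WBM mice were close together, the HFD mice were spread, and the diets did not overlap. Ctsd was 1.28-fold lower, with a log2 fold change of -0.35 (SE 0.15, adjusted p = 0.41 in limma). Ctsb, a broad cysteine protease, was 12.30, 12.29, 12.26 and 12.33 with HFD and 12.05, 12.21, 12.10 and 12.14 with HFD+WBM. Tpp1, a peptidase that removes tripeptides and is lost in a childhood form of neuronal ceroid lipofuscinosis, was 10.73, 10.56, 10.51 and 10.65 with HFD and 10.39, 10.50, 10.29 and 10.39 with HFD+WBM. Neither overlapped between the diets and neither passed limma, where the log2 fold change was -0.17 (SE 0.13) for Ctsb and -0.22 (SE 0.13) for Tpp1. The exact two-sided permutation test gave p = 0.0286 for Ctsd, Ctsb and Tpp1, the smallest that 4 mice against 4 allow, and 0.057 for Lgmn.

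Other proteases gave smaller or less certain differences. Ctsc, the dipeptidyl peptidase that activates granule proteases of immune cells, had a log2 fold change of -0.37 (SE 0.18), and HFD+WBM replicate 2 stood among the HFD mice. Ctsl, another broad cysteine protease, had -0.30 (SE 0.19), and Ctsz, a carboxypeptidase, -0.24 (SE 0.15). Ctsa, which also shields beta-galactosidase and neuraminidase in a complex, Ctsf and Ctsh lay between -0.24 and -0.05. Ctsk, known from osteoclasts, had the widest standard error of the 36 genes, 0.48, and an estimate of -0.07. It was dim, with means of 4.98 with HFD and 4.91 with HFD+WBM, below every array median.

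**Figure D2:**
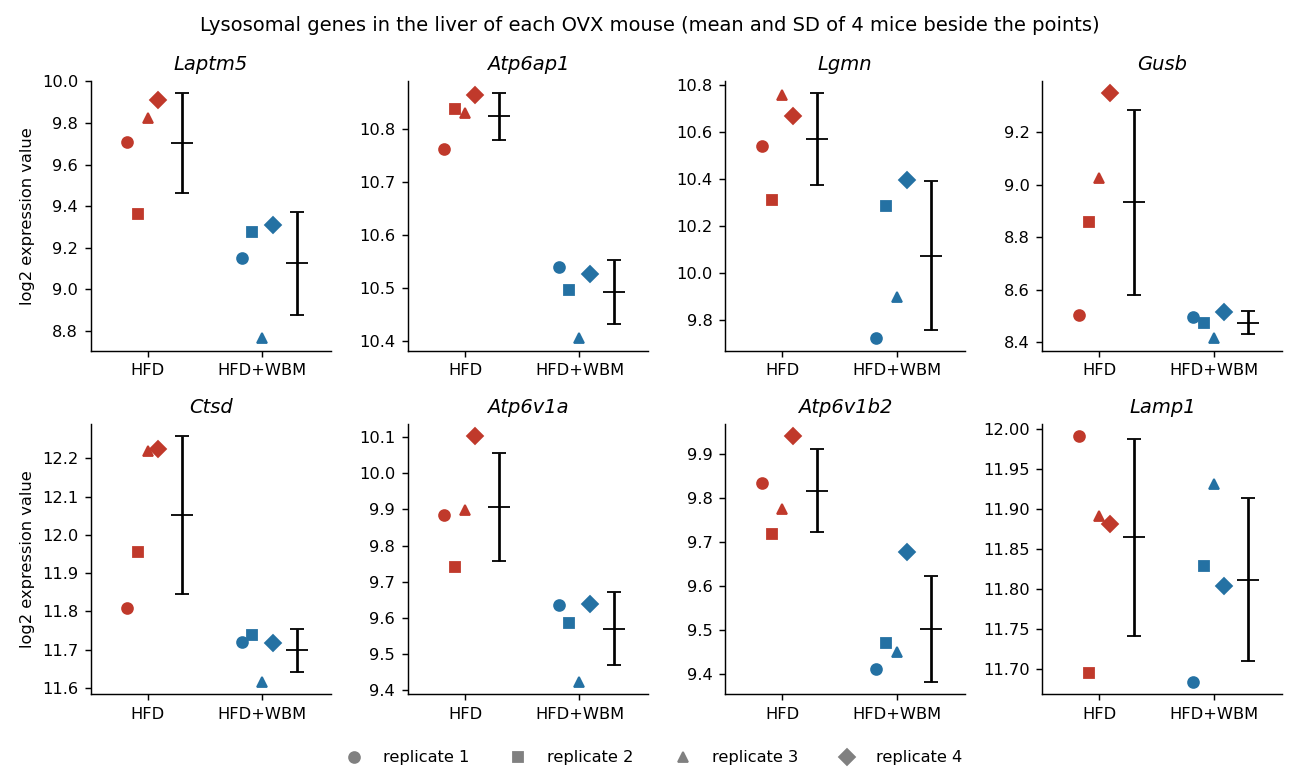
Log2 expression value in each liver of the 7 lysosomal genes with p under 0.05 before adjustment, and of Lamp1 (last panel); the vertical axis differs between panels, colour gives the diet, symbol shape the replicate number, and the bar the mean and SD of 4 mice. The diets are separate for Laptm5, Atp6ap1, Ctsd, Atp6v1a and Atp6v1b2, overlap for Lgmn and Gusb through single mice, and overlap widely for Lamp1.

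The glycosidases strip sugars from glycoproteins, glycolipids and glycosaminoglycans, and the loss of each causes a storage disease. Of the 9 genes 1 was lower, and the median log2 fold change was -0.16. Gusb, beta-glucuronidase, was 8.50, 8.86, 9.02 and 9.35 in the HFD mice and 8.50, 8.47, 8.41 and 8.52 in the HFD+WBM mice. The HFD mice were spread widely, and HFD replicate 1 lay at the level of the HFD+WBM mice. Gusb was 1.37-fold lower, with a log2 fold change of -0.46 (SE 0.19, adjusted p = 0.40 in limma), and an exact two-sided permutation p of 0.057. The call was kept when HFD replicate 1 was left out, and was lost without any other mouse (log2 fold change -0.60 to -0.32 over all settings). Gla, the alpha-galactosidase deficient in Fabry disease, had a log2 fold change of -0.31 (SE 0.15), and Naglu, an enzyme of heparan sulfate breakdown, -0.30 (SE 0.21). Neu1, Glb1, Man2b1 and Hexa, which remove sialic acid, galactose, mannose and N-acetylhexosamine, lay between -0.17 and -0.03. Gaa, the acid glucosidase that degrades glycogen, and Sgsh, a sulfatase of heparan sulfate breakdown, had estimates above 0, at 0.02 and 0.11.

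None of the 4 genes of sphingolipid breakdown and progranulin passed, and all had estimates below 0 (median -0.20). Smpd1, the acid sphingomyelinase, was 9.68, 9.73, 10.02 and 9.73 in the HFD mice and 9.47, 9.55, 9.42 and 9.56 in the HFD+WBM mice. The diets did not overlap, and HFD replicate 3 was high within its group. Its log2 fold change was -0.29 (SE 0.14, adjusted p = 0.44 in limma), with an exact two-sided permutation p of 0.0286. Asah1, the acid ceramidase, had -0.27 (SE 0.17), Psap, the precursor of the saposins that hand lipids to the hydrolases, -0.14 (SE 0.14), and Grn, progranulin, -0.10 (SE 0.16).

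Among the 6 membrane proteins, the gene with the lowest estimate of all 36 stood beside the genes that define the lysosomal membrane, whose estimates were near 0. Laptm5 was 9.71, 9.36, 9.83 and 9.91 in the HFD mice and 9.15, 9.28, 8.76 and 9.31 in the HFD+WBM mice. The diets were separate by a narrow margin, between HFD+WBM replicate 4 and HFD replicate 2. The mean fell from 9.70 ± 0.24 to 9.13 ± 0.25 (SD, n = 4 each), 1.49-fold lower, with a log2 fold change of -0.58 (SE 0.18, adjusted p = 0.37 in limma) and an exact two-sided permutation p of 0.0286. Laptm5 passed in all 18 other settings.

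Lamp1 was 11.99, 11.70, 11.89 and 11.88 in the HFD mice and 11.68, 11.83, 11.93 and 11.80 in the HFD+WBM mice. Lamp2, which also has an isoform needed for chaperone-mediated autophagy, was 12.44, 12.51, 12.63 and 12.41 with HFD and 12.31, 12.41, 12.34 and 12.55 with HFD+WBM. Both overlapped widely. Their log2 fold changes were -0.05 (SE 0.14) and -0.10 (SE 0.14), and Lamp1 ran from -0.11 to 0.02 over the settings tried. Mcoln1, the calcium-conducting channel of the lysosome, had -0.09 (SE 0.14), and Scarb2, which carries beta-glucocerebrosidase to the lysosome, 0.05 (SE 0.15). Cd63, a tetraspanin of late endosomes, had -0.16 (SE 0.26). The Cd63 probe set was dim, with means of 5.45 with HFD and 5.29 with HFD+WBM, below every array median.

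The proton pump was the role with the largest share of genes called, 3 of 5, and its median log2 fold change was -0.31. Atp6v1a, the subunit of the cytosolic sector that splits ATP, was 9.88, 9.74, 9.90 and 10.10 in the HFD mice and 9.63, 9.59, 9.42 and 9.64 in the HFD+WBM mice. Atp6v1b2, the other large subunit of that sector, was 9.83, 9.72, 9.77 and 9.94 with HFD and 9.41, 9.47, 9.45 and 9.68 with HFD+WBM. Atp6ap1, an accessory protein of pump assembly and sorting, was 10.76, 10.84, 10.83 and 10.86 with HFD and 10.54, 10.50, 10.40 and 10.53 with HFD+WBM. None of these genes overlapped between the diets, and the gap was wide for Atp6ap1 and narrow for Atp6v1b2. In limma the log2 fold changes were -0.34 (SE 0.14, adjusted p = 0.41) for Atp6v1a, -0.31 (SE 0.14, adjusted p = 0.42) for Atp6v1b2 and -0.33 (SE 0.13, adjusted p = 0.40) for Atp6ap1, with an exact two-sided permutation p of 0.0286 each. With each array centred on its median, or after quantile normalization, Atp6v1a, Atp6v1b2 and Ctsd no longer passed.

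Atp6v0d1 and Atp6v0d2 encode alternative forms of the stalk subunit of the membrane sector, the first found in most tissues and the second known from osteoclasts and macrophages. Atp6v0d1 had a log2 fold change of -0.22 (SE 0.15). Atp6v0d2 had a mean of 7.39 ± 0.44 in the HFD mice and 7.99 ± 0.69 in the HFD+WBM mice (SD, n = 4 each). Its values overlapped, with HFD+WBM replicate 4 highest at 8.97, and the log2 fold change of 0.61 (SE 0.35) did not pass. It did pass as higher when HFD replicate 3 or HFD+WBM replicate 2 was left out, with a log2 fold change of 0.81 in each case.

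Tfeb was 7.19, 7.09, 5.87 and 7.05 in the HFD mice and 7.45, 7.31, 7.17 and 7.34 in the HFD+WBM mice. HFD replicate 3, the mouse with the array most unlike the others, was far below the other HFD mice, and HFD replicate 1 lay just above the lowest HFD+WBM mouse. The log2 fold change was 0.52 (SE 0.28, adjusted p = 0.48 in limma), and 0.21 without HFD replicate 3. Neither value passed.

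TFEB binds an E-box with the core CACGTG, and lysosomal genes often carry it with a T in front, TCACGTG, near the start of transcription. Promoters, from 250 bases before to 50 after the start site, were taken from RefSeq on GRCm38.p6 and were listed for 31 of the 36 genes. A gene with several listed promoters was counted as holding a motif if any of them did. The core reads the same on both strands, and the longer motif was searched on both. The core CACGTG was in 14 of the 31 promoters (45.2%) and in 8.09% of the 27025 genes with a listed promoter. The longer motif TCACGTG, which contains the core, was in 12 (38.7%) and in 4.29%. Among the 15563 genes that were both tested on the array and had a listed promoter, the shares were 9.52% for the core and 5.36% for the longer motif. Of the 7 genes that were lower, Ctsd, Lgmn and Atp6v1a held the longer motif, Laptm5, Gusb and Atp6ap1 did not, and Atp6v1b2 was not in the list. The median log2 fold change was -0.23 for the 12 genes with the longer motif and -0.16 for the 19 without. The stretches that hold the motif are shown for the 3 lower genes, and for Lamp1 and Ctsa as genes that did not pass but hold it, each as the strand of the gene, 5′ to 3′ and wholly before the start site, with the core in capitals.
Lgmn, chr12:102439109-102439168, minus strand: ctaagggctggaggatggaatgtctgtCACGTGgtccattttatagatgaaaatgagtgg
Ctsd, chr7:142387893-142387952, minus strand: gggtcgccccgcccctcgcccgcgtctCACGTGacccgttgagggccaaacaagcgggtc
Atp6v1a, chr16:44139358-44139417, minus strand: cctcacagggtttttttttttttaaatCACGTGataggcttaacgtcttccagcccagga
Ctsa, chr2:164833734-164833772, plus strand: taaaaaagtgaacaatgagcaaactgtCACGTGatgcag
Lamp1, chr8:13159074-13159160, plus strand: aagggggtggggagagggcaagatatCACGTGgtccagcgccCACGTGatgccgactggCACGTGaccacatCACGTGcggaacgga

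The core shown begins 49 bases before the start site in Lgmn, 98 in Ctsd, 131 in Atp6v1a and 12 in Ctsa, while Lamp1 holds 4 cores, at 61, 45, 28 and 15 bases. The promoters of Ctsd and Ctsa hold 2 cores each, of which 1 lies outside the stretch shown. A match describes these letters and is not a measured binding site. Genes with the motif were found both among those that passed the diet test and among those that did not. Lamp1, with 4 cores, had a log2 fold change of -0.05, and Laptm5, with none in this window, had -0.58.

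Across the 8 mice, 33 of the 36 lysosomal genes had a positive Pearson r with macrophage signal, and the median r was 0.66 (-0.56 to 0.97), against a median of -0.02 over all genes. By an exact permutation test over all 40320 orders of the mice, two-sided, 16 of 36 (44.4%) had a positive r at p under 0.05 before adjustment, and none a negative one. The same was true of 8.84% of all genes. After adjustment over the 19938 genes none passed, the smallest adjusted p being 0.11 for Laptm5 and 0.16 for Lgmn. All 7 genes that were lower with HFD+WBM were among the 16, at 0.74 to 0.97. The signal was itself separate between the diets, so a gene lower with HFD+WBM tends to have a positive r in any case. Within diets, as described below, the median r of these 7 genes was 0.61. By role, the 16 comprised 7 of 11 proteases, 1 of 9 glycosidases, 3 of 4 sphingolipid genes, 1 of 6 membrane proteins and 4 of 5 pump subunits.

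**Figure D3:**
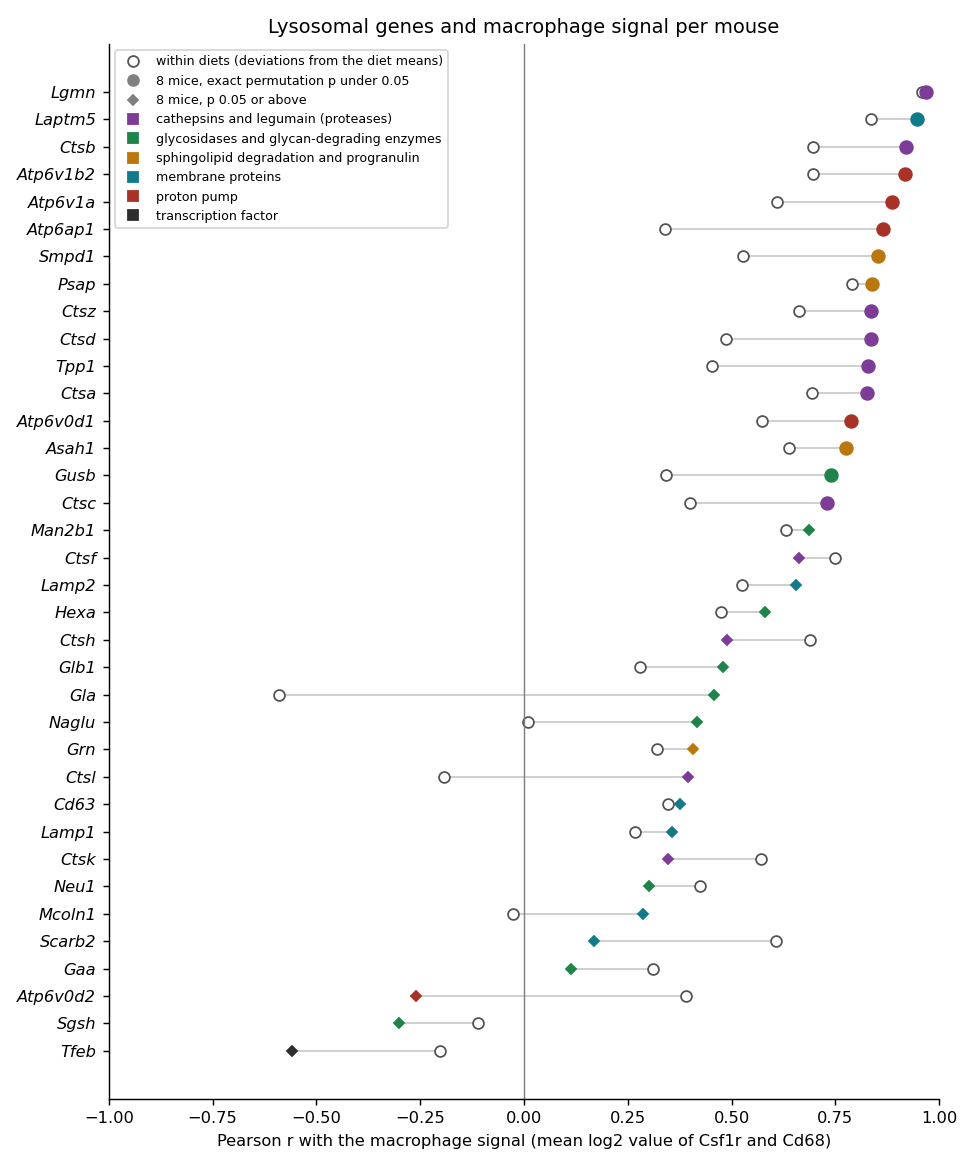
Pearson r of each lysosomal gene with macrophage signal (mean log2 value of Csf1r and Cd68) over 8 mice, as filled symbols coloured by role, with large circles for exact permutation p under 0.05, and within diets as open circles. Of the 36 genes 33 lie right of 0 over all mice and 31 within diets, and the 16 large circles lie at the top.

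Laptm5 had r = 0.95 and Spearman's rho = 0.98 (exact permutation p = 4.96e-05 and 3.97e-04). Lgmn had r = 0.97 and rho = 0.88 (exact permutation p = 5.70e-04 and 0.0072). Ctsb, which did not pass the diet test, had r = 0.92 and rho = 0.90 (exact permutation p = 0.0015 and 0.0046). For Lgmn the lower pair of HFD+WBM mice was low in the gene too, and the upper pair stood with HFD replicate 2. Atp6v1b2 (r = 0.92), Atp6v1a (0.89), Atp6ap1 (0.86), Smpd1 (0.85), Psap (0.84), Ctsz (0.84), Ctsd (0.83), Tpp1 (0.83), Ctsa (0.83), Atp6v0d1 (0.79), Asah1 (0.78), Gusb (0.74) and Ctsc (0.73) made up the rest of the 16. For Ctsc, rho was 0.69 and did not pass (exact permutation p = 0.069). The lowest were Tfeb (-0.56), Sgsh (-0.30) and Atp6v0d2 (-0.26), and Lamp1 had 0.36.

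Because both macrophage signal and the lysosomal genes differed between the diets, r was also taken within diets, from the deviations of each mouse from its diet's mean, as a description. It was positive for 31 of 36 genes with a median of 0.48, and for 51.6% of all genes with a median of 0.02. It was 0.96 for Lgmn, 0.84 for Laptm5, 0.79 for Psap, 0.75 for Ctsf and 0.70 for Atp6v1b2, and fell to 0.34 for Atp6ap1 and Gusb. For Gla it was -0.59, where r over all mice was 0.46. Without the 2 mice farthest from the median signal, HFD+WBM replicates 1 and 3, r stayed positive for 30 of 36 genes with a median of 0.57, against -0.10 over all genes. It was 0.98 for Laptm5 and 0.91 for Lgmn, but 0.33 for Ctsc.

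**Figure D4:**
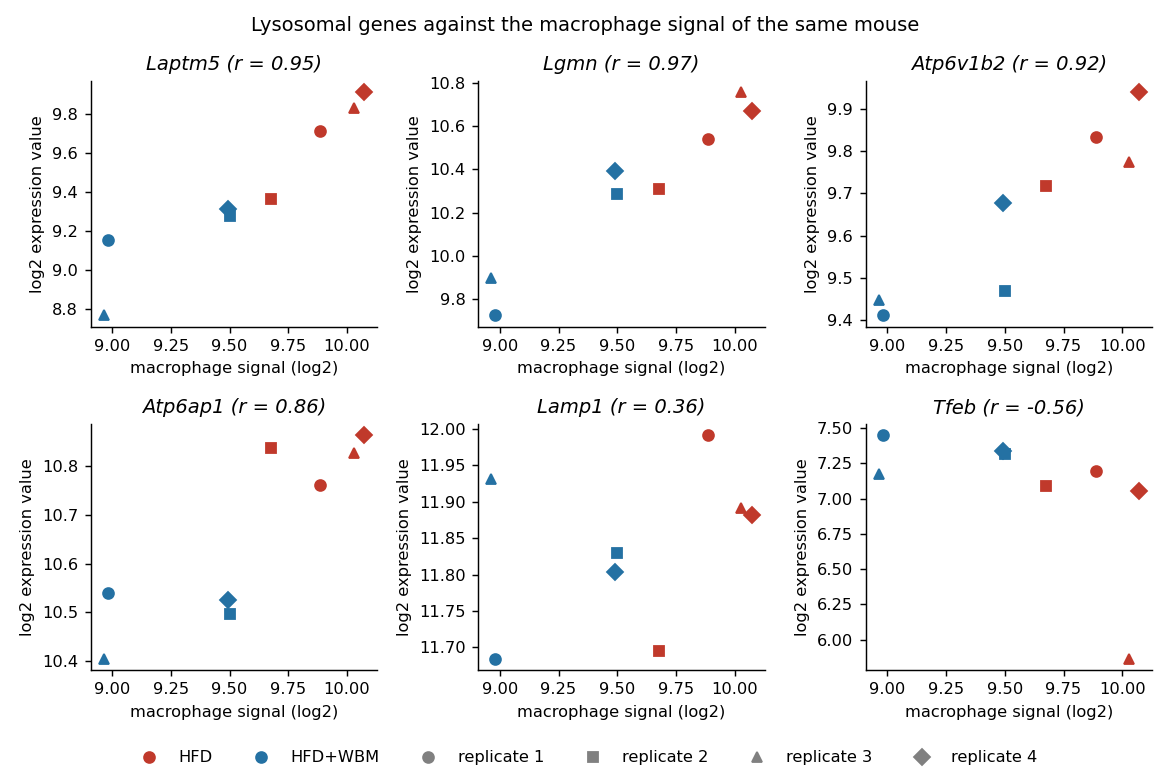
Log2 expression value of Laptm5, Lgmn, Atp6v1b2, Atp6ap1, Lamp1 and Tfeb (vertical axis, which differs between panels) against macrophage signal (horizontal axis, log2) in the same liver, with colour for diet and shape for replicate number. Laptm5, Lgmn and Atp6v1b2 tend to rise along the axis within each diet as well as between the diets, Atp6ap1 steps between the diets, and Lamp1 shows no clear slope.

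With macrophage signal added to diet as a term in limma, no lysosomal gene was lower and none higher at p under 0.05 before adjustment, where 2.8% of all genes were lower and 2.66% higher. The median diet difference of the 36 genes was then 0.04 (log2), with 14 estimates below 0 and 22 above. For Laptm5 the difference was -0.01 (SE 0.28) in place of -0.58, and for Lgmn 0.20 (SE 0.25) in place of -0.50. For Ctsd it was -0.15 (SE 0.28), for Atp6v1a -0.12 (SE 0.26), for Atp6v1b2 -0.11 (SE 0.25) and for Gusb -0.22 (SE 0.35). Atp6ap1 kept most of its estimate, at -0.28 (SE 0.24) in place of -0.33. Gla moved the other way, from -0.31 to -0.55 (SE 0.27). Atp6v0d2 moved from 0.61 to 1.22 (SE 0.64), and it passed as higher in this fit when HFD+WBM replicate 2 was left out (2.35). Since the signal itself differed between the diets, the errors were wider with the term, with a median SE of 0.28 against 0.16 for the 36 genes. An estimate near 0 in this fit does not show that the diets were alike at equal signal. The median diet difference of the 36 genes also changed sign with the signal used as the term. It was -0.03 with Csf1r alone, 0.08 with Cd68 alone and -0.10 with the mean of the other 16 macrophage markers.

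**Figure D5:**
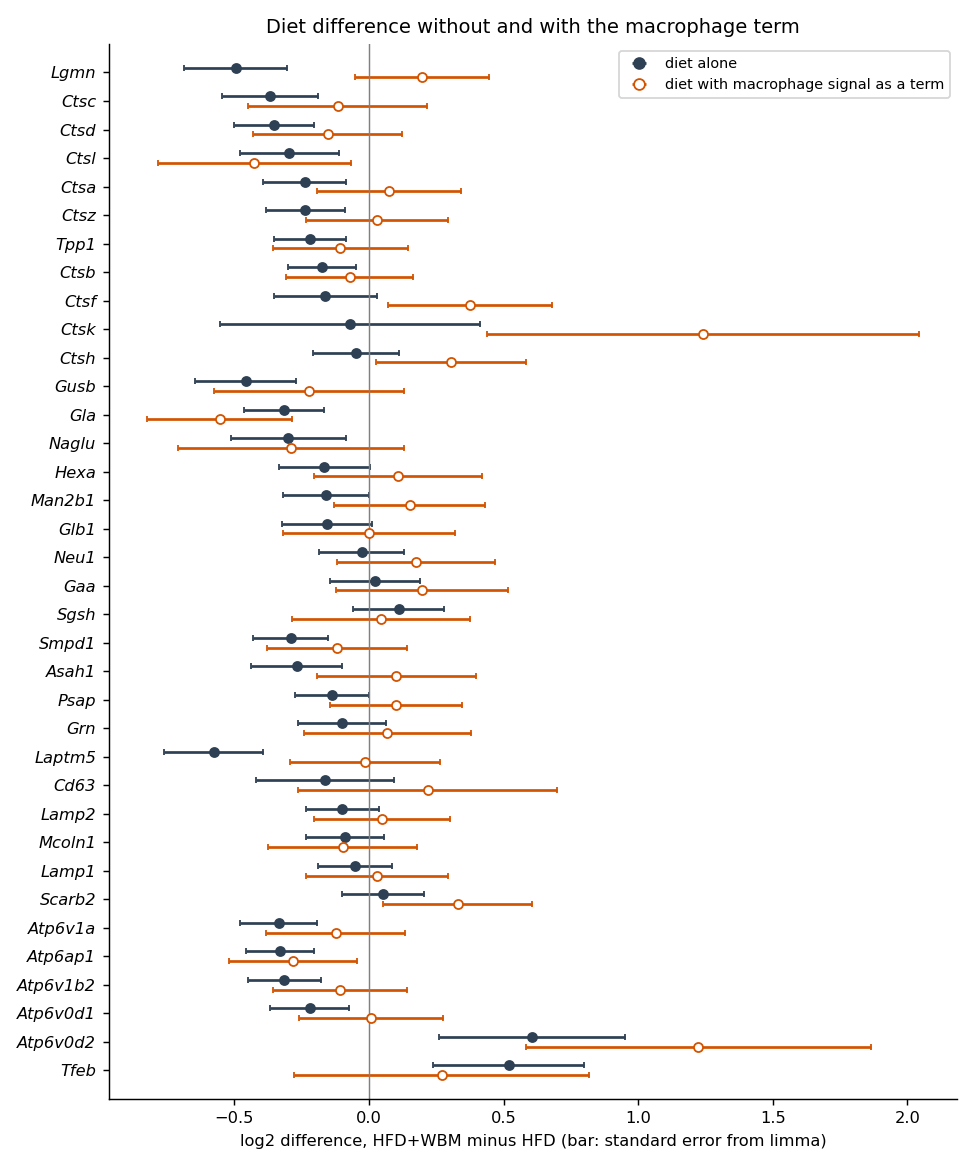
Log2 difference between HFD+WBM and HFD for each lysosomal gene with diet alone (filled) and with macrophage signal as a further term (open), each with its standard error from limma, 8 mice. The open points scatter about 0 with wider bars, Laptm5 and Lgmn move to 0 or above, and Atp6ap1 moves little.

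Other genes of the lysosome, from a list of 58 of which 51 were measured, gave a like share. Of the 51, 10 were lower and 1 was higher (19.6% lower), 43 estimates were below 0, and the median log2 fold change was -0.21. Leaving out HFD+WBM replicate 3 brought the count lower to 3 of 51, where 4.53% of all genes were lower. Leaving out HFD replicate 4 brought it to 4 of 51, where 4.98% were. Ctss, a cysteine protease of antigen-presenting cells, was 10.96, 10.50, 10.91 and 11.08 in the HFD mice and 9.92, 10.40, 9.80 and 10.31 in the HFD+WBM mice, separate between the diets. It had a log2 fold change of -0.76 (SE 0.20, adjusted p = 0.37 in limma) and r = 0.98 with macrophage signal. Others among the 8 with the smallest p were the pump subunits Atp6v1h (-0.39) and Atp6v1g1 (-0.47), the phospholipase Pla2g15 (-0.53), the nuclease Dnase2a (-0.54), the cystine transporter Ctns (-0.34) and Mitf (-0.51), a transcription factor of the same family as Tfeb. Ids, a sulfatase that degrades heparan and dermatan sulfate, was the gene that was higher, with 7.91, 7.77, 7.89 and 7.88 in the HFD mice and 8.38, 8.22, 8.51 and 8.10 in the HFD+WBM mice. These did not overlap, and Ids had a log2 fold change of 0.44 (SE 0.14, adjusted p = 0.38 in limma) and r = -0.90.

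The 11 further pump subunits among them all had estimates below 0, with a median log2 fold change of -0.22, and 3 were lower: Atp6v1h, Atp6v1g1 and Tcirg1. Of the pump genes listed here and measured, Atp6v0d2 alone had an estimate above 0.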

How the data were processed

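Single-colour arrays measured liver RNA of the 8 OVX mice. Per the paper's methods, the authors corrected intensities for background, normalized and summarized them per probe set with IterPLIER in version 1.8.6 of Affymetrix Power Tools. The scale of the deposited values is not stated there, and was taken as log2 from their range. The sources used here give no offset before the log. Detection calls were not used here, so dim genes carry no background limit. Diets and replicate numbers come from the labels. Of 28944 probe sets, 21789 name 1 gene, 1621 several and 5534 none in the platform annotation; per gene the probe set with the highest mean was kept. All 19938 genes were fitted in R 4.3.3 (limma 3.58.1, diet as term). Adjusted p-values are Benjamini-Hochberg over the whole array. Lower or higher means p under 0.05 before adjustment. Fold changes are HFD+WBM over HFD. Standard errors are those of limma. The number of arrays limits the precision. Correlations used exact permutation over mice. The fit and the correlation test were checked on simulated data. The genes and lists were chosen with earlier results of these data known. Values of every mouse are given for genes that passed, genes whose diets did not overlap, Tfeb, Lamp1, Lamp2, Csf1r and Cd68, and the 8 other lysosomal genes with the smallest p are named; Atp6v0d2 and the values of Ctss and Ids were added after values were seen. Other settings were centred arrays, quantile normalization, offsets of 16 and 64 before the log, the 50% brightest genes, the mean of a gene's probe sets, a prior variance that follows the signal, array weights, an equal-variance test, the replicate block, other macrophage signals and leaving out each mouse.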

Additional observations from a re-analysis of the deposited data

Results flagged for a closer look

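In 76 groups of 4 values (36 lysosomal genes, Csf1r and Cd68, in each diet), 7 held a mouse whose gap to the nearest other mouse, as a share of the group's range, exceeded Dixon's critical value. Chance flags about 1 group in 20, or 3.8 of 76. Tfeb in HFD replicate 3 was 5.87, with the other HFD mice at 7.05 to 7.19. Csf1r in HFD replicate 2 was 10.11, with the others at 10.50 to 10.54. Ctsl was 11.81 in HFD replicate 1 (others 12.39 to 12.46) and 11.73 in HFD+WBM replicate 2 (others 12.04 to 12.08). Ctsc in HFD+WBM replicate 2 was 11.21 (others 10.65 to 10.72). Man2b1 in HFD replicate 4 was 11.07 (others 10.68 to 10.74), and Smpd1 in HFD replicate 3 was 10.02 (others 9.68 to 9.73).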

How the results depend on the processing

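The median log2 fold change of the 36 genes stayed below 0 in each setting tried. The number of genes lower, 7, was 4 with centred arrays and 4 after quantile normalization (11.1%, against 6.36% and 6.80% of all genes). It was 11 by an equal-variance t-test (30.6%, against 7.66% of all genes, and none after Benjamini-Hochberg). It was 0 at the study's thresholds and 1 to 7 with a mouse left out. The other settings gave 6 to 10, except the replicate block, given below. In these settings 6.89% to 8.53% of all genes were lower, except with the 50% brightest genes. There the share was 12.01%, and the count was 10 of the 32 lysosomal genes tested. The number higher, 0, was 2 with an offset of 64 (Atp6v0d2 and Tfeb), 1 with a signal-dependent prior variance, 1 with array weights, and 0 to 1 with a mouse left out. None of the 36 passed an adjusted p of 0.05 in any setting. Of the other lysosomal genes, 10 were lower, 0 at the study's thresholds and 3 to 12 with a mouse left out. Other settings gave 7 to 15, except the replicate block. With the mean of a gene's probe sets the count was 8, and Atp6v1g1, Mitf and Arsb, among the 10, have 2 probe sets each. The number of genes with a positive r at exact permutation p under 0.05, 16, was 10 after quantile normalization. It was 11 to 16 with a mouse left out, 13 with Csf1r alone as signal, 16 with Cd68 alone and 12 with the marker list. No share of all genes is given for the correlation in these other settings. With the macrophage term, the number lower, 0, was 1 (Gla) with the 50% brightest genes, with array weights, with Csf1r alone and with the marker list as signal, and the number higher, 0, was at most 2 (Atp6v0d2 and Ctsf, with array weights). Mice of the same replicate number did not deviate alike from their diet means (correlation of deviations -0.12 to -0.02). Such a correlation cannot show whether the mice were paired by design. With the replicate block 1 of the 36 genes, Laptm5, was lower (2.78%, against 5.06% of all genes), and 4 of the 51 other lysosomal genes were. The causes were not tested.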

Other observations

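Other cell types were set beside the lysosomal genes after the values had been seen, as a description over 8 mice that share diets. The median r of the 36 genes with the mean of each marker list was 0.56 for macrophages, 0.59 for stellate cells and fibroblasts and 0.54 for sinusoidal endothelium, and -0.09 for hepatocytes, -0.01 for lymphocytes, 0.03 for cholangiocytes and -0.47 for neutrophils. The stellate and endothelial means themselves had an r of 0.65 and 0.67 with the signal of Csf1r and Cd68, so the lists are not separate measures of these livers.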
